A study of Mus musculus with 4 samples.

Results

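The acute phase genes described here are *Saa1*, *Saa2*, *Saa3*, *Hp*, *Hpx*, *Lcn2*, *Orm1*, *Cp* and *Itih4*, and all 9 were found by name among the 22483 named loci of the deposited table, which holds 30506 loci in all. Each name stood in a single row of its own. Poly(A) RNA of whole mammary glands had been sequenced in 4 virgin animals, 2 miR-21+/+ and 2 miR-21-/-, aged 2 months by the labels and of a mixed 129SV, FVB/N and C57BL/6 background that both genotypes shared. The deletion was not restricted to the mammary epithelium, so fat, blood and liver of the miR-21-/- mice lacked the microRNA too. The table gives the authors' single FPKM value for each genotype, a count of fragments scaled to transcript length and library depth, which combines the 2 mice. No value per mouse was used, the spread between mice is not visible in these 2 columns, and no test of a difference was made.

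The acute phase response is the rapid change in plasma proteins that follows infection or injury. The liver makes most of these proteins, under the control of interleukin-6, interleukin-1 and tumour necrosis factor, which act through STAT3, C/EBP factors and NF-kB. Several are also made outside the liver, in fat cells, secretory epithelium and macrophages, and haptoglobin, lipocalin-2 and serum amyloid A3 have been studied in the mammary gland during involution and mastitis. The comparison asks how these genes stood in glands that lacked miR-21. The paper cites work in which STAT3 raised this microRNA in myeloma cells and lowered it in glioma cells. It places the microRNA under the control of STAT5 in mammary cells.

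The 9 genes fell into an abundant and a scarce group. *Hp*, *Lcn2*, *Orm1* and *Cp* lay between 54.9 and 270 FPKM in both genotypes and made up 99.1% of the summed FPKM of the 9 genes in miR-21+/+ glands and 99.3% in miR-21-/- glands. *Itih4* lay between 2 and 3 FPKM, and *Saa1*, *Saa2*, *Saa3* and *Hpx* were all under 1 FPKM. The name of acute phase proteins made in the gland therefore held at the RNA level for 4 of the 9, which exceeded 5 FPKM, while the other 5 stayed at or below that minimum. The summed level of the 9 genes was 480 FPKM in miR-21+/+ and 507 FPKM in miR-21-/- glands, a log2 difference of 0.08.

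**Figure D1:**
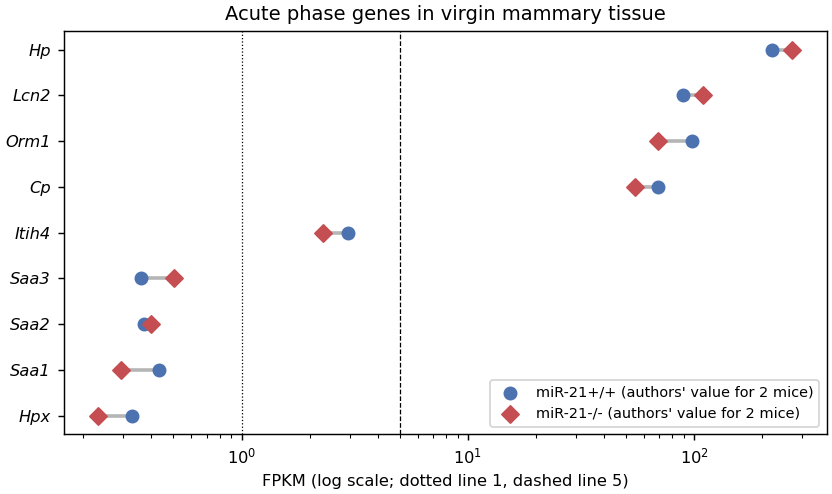
FPKM of the 9 acute phase genes on a log scale, with circles for miR-21+/+ and diamonds for miR-21-/-, each the authors' single value for 2 mice and without an error. *Hp* and *Lcn2* were higher in miR-21-/- glands and *Orm1*, *Cp* and *Itih4* lower, although *Hp* and *Lcn2* turned lower when the columns were scaled to equal sums over all loci, and 4 genes lay under 1 FPKM.

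No member differed by 2-fold as deposited. Of the 4 members over 5 FPKM, 0 reached 2-fold in either direction, where 2.73% of the 9714 named loci over 5 FPKM in at least one genotype did. At 1.5-fold, 0 of the 4 were higher in miR-21-/- glands, beside 3.85% of these loci, and 0 were lower, beside 4.33%. Of the 5 members over 1 FPKM, 2 were higher and 3 lower, with a median log2 ratio of −0.33, and the median of the 13565 named loci over 1 FPKM was −0.03. With the minimum raised to 5 FPKM, which leaves out *Itih4*, the median of the members was −0.02.

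The table carries no error, so the ratios were set beside the ratios of named loci of like level, a range that holds counting error and real differences together. Among the 468 loci with a mean of 100 to 500 FPKM, the middle 90% of log2 ratios ran from −0.74 to 0.62, and *Hp* lay inside it. Among the 701 loci with a mean of 50 to 100 FPKM it ran from −0.66 to 0.35, and *Lcn2*, *Orm1* and *Cp* lay inside it. For the 3900 loci between 1 and 5 FPKM the range was −0.95 to 0.84, and for the 2869 loci between 0.1 and 1 FPKM it was −1.62 to 1.40, so all 9 members lay inside the range of their class. The abundant members lay away from its centre. In its class, 10.3% of loci were at least as high as *Hp* and 5.85% as *Lcn2*, and 8.99% were at least as low as *Orm1* and 16.7% as *Cp*.

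**Figure D2:**
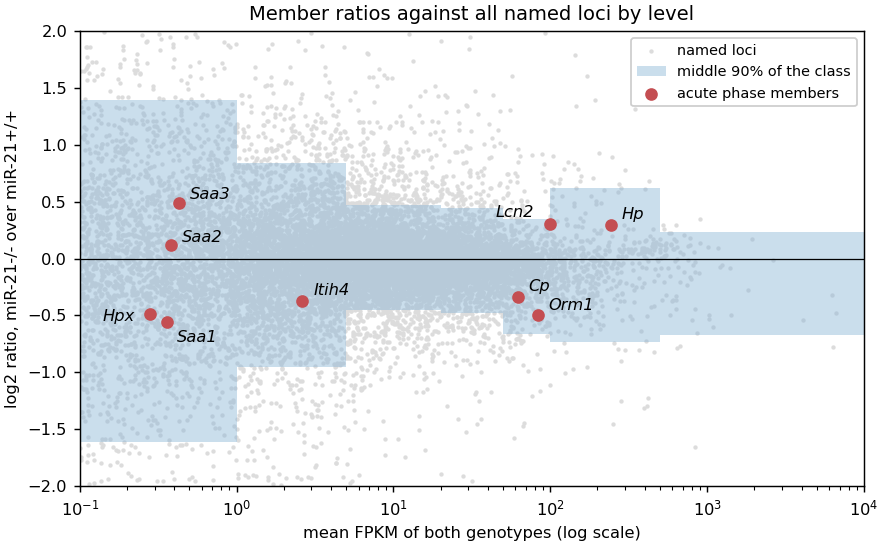
Log2 ratio of miR-21-/- over miR-21+/+ FPKM against the mean FPKM of both genotypes (log scale), with all named loci in grey, the middle 90% of each class of level shaded, and the 9 acute phase genes in red. Loci beyond a log2 ratio of 2 in either direction are off the plot, and the 9 genes lie inside the shaded range of their class, with *Lcn2* at 0.30 nearest to an upper edge, 0.35.

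Haptoglobin, which binds free haemoglobin and carries it to the macrophage receptor CD163, was the most abundant member. *Hp* (mm9 chromosome 8, 112099028 to 112103072, minus strand, 5 exons) stood at 220 FPKM in miR-21+/+ and 270 FPKM in miR-21-/- glands, which placed it at rank 231 and rank 172 of the named loci. The log2 ratio was 0.30, or 1.23-fold higher in the knockout. Its share of the summed FPKM of the 9 genes was 45.8% in miR-21+/+ glands and 53.2% in miR-21-/- glands. Hemopexin, the companion protein that binds free heme, was nearly silent. *Hpx* (chromosome 7, 112740125 to 112748630, minus strand, 10 exons) was at 0.327 FPKM in miR-21+/+ and 0.233 FPKM in miR-21-/- glands, so that of the 2 scavengers of red cell contents only haptoglobin RNA was abundant.

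Lipocalin-2 takes up bacterial siderophores and so keeps iron from microbes. *Lcn2* (chromosome 2, 32240157 to 32243259, minus strand, 6 exons) was at 88.8 FPKM in miR-21+/+ and 109 FPKM in miR-21-/- glands, a log2 ratio of 0.30. This was the same step as that of *Hp*: the ratio of *Hp* to *Lcn2* was 2.47 in both genotypes. A ratio of 2 genes within a column does not move with the scaling of the columns, but it has no error here either.

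Orosomucoid, or alpha-1-acid glycoprotein, binds lipophilic compounds in plasma. *Orm1* (chromosome 4, 63005600 to 63009196, plus strand, 6 exons) was at 97.4 FPKM in miR-21+/+ and 69.0 FPKM in miR-21-/- glands. Its log2 ratio of −0.50 was the largest difference among the 4 abundant members. *Orm1* was above *Lcn2* in miR-21+/+ and below it in miR-21-/- glands, with a ratio of *Lcn2* to *Orm1* of 0.912 and 1.59. The ratio of *Hp* to *Orm1* was 2.26 in miR-21+/+ glands and 3.91 in miR-21-/- glands, which is a log2 change of 0.80.

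The mouse genome holds 3 *Orm* genes side by side, and both copies beside *Orm1* were lower as well. *Orm2* was at 10.2 and 6.86 FPKM in miR-21+/+ and miR-21-/- glands, and *Orm3* was at 10.7 and 6.79 FPKM, with log2 ratios of −0.57 and −0.66. *Orm1* made up 82.3% of the summed FPKM of the 3 genes in miR-21+/+ glands and 83.5% in miR-21-/- glands. The coding sequences of *Orm1* and *Orm2* were identical at 89.9% of 624 aligned bases and those of *Orm1* and *Orm3* at 86.5% of 621. Of all windows of 50 bases in the *Orm1* transcript, 20.4% occurred in *Orm2* too and 2.20% in *Orm3*, so reads from these windows could have been assigned to more than 1 copy, and the low values of *Orm2* and *Orm3* are uncertain. The 60 coding bases in which the 3 copies differed most are shown to make the likeness visible, with capitals at the 25 positions where they were not all the same (bases 138 to 197 of the *Orm1* and *Orm2* coding sequence and 135 to 194 of that of *Orm3*, 5′ to 3′, GENCODE transcripts of mm9).
Orm1: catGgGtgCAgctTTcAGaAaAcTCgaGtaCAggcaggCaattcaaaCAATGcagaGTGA
Orm2: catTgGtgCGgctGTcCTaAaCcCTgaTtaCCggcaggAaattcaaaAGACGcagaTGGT
Orm3: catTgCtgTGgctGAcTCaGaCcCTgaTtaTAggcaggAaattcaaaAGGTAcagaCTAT

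Ceruloplasmin carries copper and oxidises iron so that transferrin can load it. *Cp* (chromosome 3, 19856946 to 19935310, plus strand, 20 exons) was at 69.2 FPKM in miR-21+/+ and 54.9 FPKM in miR-21-/- glands, a log2 ratio of −0.33. The table gives *Hps3*, on the same stretch, a row of its own at 6.605 and 5.797 FPKM. The ratio of *Cp* to *Orm1* was 0.711 in miR-21+/+ glands and 0.796 in miR-21-/- glands, a log2 change of 0.16, so the pair of lower members stayed closer to each other than to *Hp* and *Lcn2*.

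*Itih4*, a heavy chain of the inter-alpha trypsin inhibitor family, (chromosome 14, 31699678 to 31715169, plus strand, 23 exons) was at 2.96 FPKM in miR-21+/+ and 2.29 FPKM in miR-21-/- glands, with a log2 ratio of −0.37. With a pseudocount of 1 the ratio was −0.27. Of its 11-gene family and hyaluronan partners, *Itih5* at 61.6 and 61.3 FPKM was the most abundant and had a log2 ratio of −0.01. *Itih2*, another heavy chain, was at 17.5 FPKM in miR-21+/+ and 2.61 FPKM in miR-21-/- glands, with a log2 ratio of −2.74. *Tnfaip6*, the protein that moves heavy chains onto hyaluronan, was at 9.58 and 5.77 FPKM. Of the 4 genes of this list over 5 FPKM, 0 were higher and these 2, *Itih2* and *Tnfaip6*, were lower by 1.5-fold or more. The median over the 6 genes above 1 FPKM was −0.42. Among all named loci over 5 FPKM, 3.85% were higher and 4.33% lower by 1.5-fold. With equal sums over all loci, all 4 genes of the list over 5 FPKM were lower by that much, but so were 66.6% of the 9714 named loci.

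Serum amyloid A proteins are small apolipoproteins that join high-density lipoprotein in inflammation. *Saa1* (chromosome 7, 53995869 to 53998350, minus strand) was at 0.432 FPKM in miR-21+/+ and 0.292 FPKM in miR-21-/- glands. *Saa2* (chromosome 7, 54007203 to 54009684, plus strand) was at 0.369 and 0.399 FPKM, and *Saa3* (chromosome 7, 53967368 to 53971046, minus strand), the form usually found outside the liver, was at 0.358 and 0.503 FPKM. The log2 ratios of *Saa1*, *Saa2* and *Saa3* were −0.56, 0.11 and 0.49. With a pseudocount of 1 they shrank to −0.15, 0.03 and 0.15. Each gene has 4 exons and a transcript of only 531 to 610 bases.

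The depth of the libraries was not given, but the low end of the table may hold a trace of it. Over genes with a single annotated coding transcript, FPKM multiplied by length piled up near 0.0205 in miR-21+/+ and near 0.0247 in miR-21-/-, as a step of 1 fragment would. Of the values around the first 3 multiples, 20.9% and 22.8% lay within 0.05 steps of a whole multiple, where an even spread would give 10%. The step was set at the fullest narrow interval, whose own 77 and 55 values are among the 147 and 160 counted near a multiple. At least part of the excess over 10%, and in miR-21+/+ possibly all of it, was therefore built in. These shares cannot show that there is a step, and whether it is 1 fragment was not tested. Whole reads could not be recovered, and no counting interval was computed. As a rough guide, the value of *Saa1* came to about 12.7 steps in miR-21+/+ and 7.17 in miR-21-/-, that of *Saa3* to 9.28 and 10.8, and that of *Hpx* to 23.5 and 13.96. If the step is 1 fragment, the values of the *Saa* genes rest on few fragments, and whether the genotypes differed there was not tested.

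*Saa1* and *Saa2* are also near copies of each other, with 18 differences in 369 coding bases, or 95.1% identity. *Saa3* was identical to *Saa1* at 73.2% of the coding bases. Only 9.17% of the 50-base windows of the *Saa1* transcript occurred in *Saa2*, since the differences are spread along the sequence, but fragments in these windows could have gone to either gene. Shown here are the 60 coding bases (90 to 149) where the pair differed most, with capitals at the 7 positions that differ. No 50-base window of the *Hp*, *Hpx*, *Lcn2*, *Cp* or *Itih4* transcript occurred in an annotated coding transcript of another gene, and other sequence was not searched.
Saa1: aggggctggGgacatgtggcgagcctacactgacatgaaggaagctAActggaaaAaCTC
Saa2: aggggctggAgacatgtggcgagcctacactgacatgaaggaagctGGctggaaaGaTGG

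The FPKM columns can be scaled in more than one way. The direction of *Hp* and *Lcn2* turned with equal sums over all loci but not with the scalings to named loci. Over all loci the miR-21+/+ column added up to 759295 FPKM and the miR-21-/- column to 1.1756e+06 FPKM, and over named loci they added up to 380567 and 355385 FPKM. Equal sums over all loci would lower every log2 ratio by 0.63, to −0.33 for both *Hp* and *Lcn2*, −1.13 for *Orm1* and −0.97 for *Cp*. Of the 4 members over 5 FPKM, 1, *Orm1*, would then pass 2-fold, beside 9.48% of named loci over that minimum. At 1.5-fold this scaling puts 66.6% of those loci lower and 0.721% higher, so a count of lower genes under it is read against that share. Equal sums over named loci would raise every ratio by 0.10, to 0.40 for both *Hp* and *Lcn2*. Relative to the median of all named loci over 5 FPKM, which was −0.03, *Hp* and *Lcn2* stood 0.33 above and *Orm1* 0.47 below. The order of the members among themselves cannot change under these scalings, since each shifts every log2 ratio by the same amount.

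Markers of the cell types in the gland differed between the genotypes, and each abundant member can be made by more than one of them. Over the 11 adipocyte markers the median log2 ratio was −0.40 and the summed level 27131 FPKM in miR-21+/+ and 19197 FPKM in miR-21-/- glands, with 10 of the 11 lower and *Adipoq* at 1207 and 853 FPKM. One adipocyte marker, *Lep*, was higher, at 27.7 and 67.9 FPKM. The 10 luminal epithelial markers, 8 of them higher as deposited, had a median of 0.48, which turned to −0.15 with equal sums over all loci, and summed to 909 and 1192 FPKM, with *Krt8* at 119 and 197 FPKM. The 6 myoepithelial markers were all higher as deposited, with a median of 0.73 and sums of 325 and 526 FPKM. The luminal marker *Cited1* went the other way, at 43.9 and 11.7 FPKM. In bulk tissue, fewer cells of a type and less RNA per cell cannot be told apart. Set against the adipocyte median, the log2 ratios were 0.70 for *Hp*, 0.71 for *Lcn2*, 0.07 for *Cp* and −0.09 for *Orm1*. Set against the luminal median they were −0.18, −0.18, −0.81 and −0.98 in the same order. The part of these cell types in the members' ratios was not tested.

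**Figure D3:**
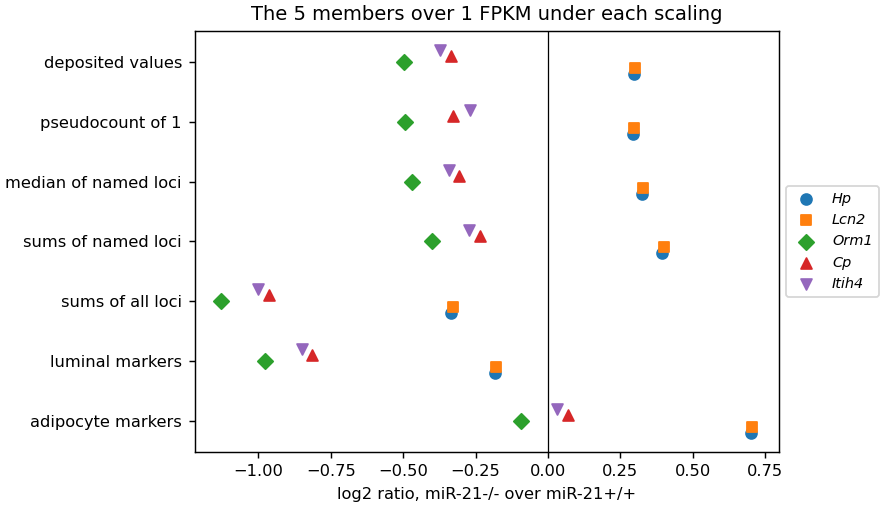
Log2 ratio of miR-21-/- over miR-21+/+ FPKM of the 5 members over 1 FPKM as deposited, with a pseudocount of 1, and relative to 5 references. *Hp* and *Lcn2* lie to the right of *Orm1*, *Cp* and *Itih4* in every setting. The 5 references cannot change this order, because each shifts all genes equally. *Hp* and *Lcn2* cross 0 when the sums of all loci or the luminal markers are the reference, and *Cp* and *Itih4* cross it with the adipocyte markers.

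Markers of blood-borne and liver cells were checked because *Lcn2* is a neutrophil granule protein and all 9 are liver products. Of the 13 neutrophil markers found, 5 did not exceed 1 FPKM in either genotype, among them *Ngp* at 0.280 and 0.0404 FPKM, *Camp* at 0.268 and 0.0774 FPKM and *Mpo* at 0.133 and 0.0230 FPKM, and *S100a8* was at 1.20 and 0.827 FPKM. The 3 above 5 FPKM were *Ltf*, which epithelium also makes, *Retnlg* and *Mmp9*. As deposited, *Retnlg*, at 6.10 and 12.1 FPKM (0.99), and *Mmp9*, at 6.45 and 9.32 FPKM (0.53), were higher in the knockout, as *Lcn2* was, although *Mmp9* and *Lcn2* turned lower with equal sums over all loci. Of the 8 neutrophil markers over 1 FPKM, 3 were higher and 5 lower as deposited. Among the lower ones was *S100a9*, at 2.24 and 0.695 FPKM (−1.69). The part of the neutrophil markers in the ratio of *Lcn2* was not tested. The summed level of the list was 121 and 64.4 FPKM, most of it *Ltf*, and its median was −0.10. Of 15 hepatocyte markers, 10 did not exceed 1 FPKM, including *Apoa1*, *Ttr*, *Ahsg*, *Fga* and *Apob*, and *Cps1* was listed at 0 in both genotypes. *Alb* was at 16.6 and 17.0 FPKM. The summed level of the list, 1354 and 440 FPKM, was almost all *Cyp2e1*, which fat also expresses, at 1271 and 402 FPKM, and its median over 5 genes was −1.41.

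As deposited, markers of other cells of the gland differed less, apart from lymphocytes. This order did not hold with equal sums over all loci. The medians were then −0.68 for macrophage and −0.76 for fibroblast markers, beside −0.15 for luminal and 0.096 for myoepithelial ones. The 11 macrophage markers, 7 lower and 4 higher, summed to 1213 and 1142 FPKM, with a median of −0.04 that turned to 0.054 with equal sums over named loci. *Cd68* of this list shares its row with *Eif4a1* and *Senp3*. The 7 fibroblast markers summed to 5283 and 4726 FPKM, with a median of −0.13. The 6 endothelial markers summed to 143 and 149 FPKM, with a median of 0.07 that turned to −0.56 with equal sums over all loci. The 8 lymphocyte markers were all lower in the knockout, with sums of 137 and 67.0 FPKM and a median of −2.16. Most of both sums was the row that *Cd79a* shares with *Arhgef1*, at 70.3 and 48.3 FPKM. *Cd3e* was at 7.26 and 1.22 FPKM.

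Among 24 other positive acute phase proteins, lower values outnumbered higher ones. Of the 13 over 5 FPKM, 6 were lower and 2 higher by 1.5-fold or more, beside 4.33% and 3.85% of named loci over that minimum. The median over the 16 above 1 FPKM was −0.57. Scaled to equal sums over all loci, the split was 10 lower and 1 higher, where 66.6% of all named loci over 5 FPKM were lower. The fibrinogen chains *Fgb*, at 26.8 and 3.94 FPKM, and *Fgg*, at 37.4 and 14.1 FPKM, had log2 ratios of −2.77 and −1.41, while the third chain *Fga* was under 0.01 FPKM in both genotypes. Complement *C3* was at 507 and 306 FPKM (−0.73) and fibronectin *Fn1* at 380 and 217 FPKM (−0.81), and *Orm3* was described above. The 2 that were higher both serve the sensing of lipopolysaccharide: *Lbp*, which hands it on, was at 11.9 and 31.96 FPKM (1.42), and its receptor *Cd14* at 25.4 and 42.7 FPKM (0.75). The metallothionein *Mt1* was at 66.3 and 64.0 FPKM, and *Serpina3n*, in a row shared with *Serpina3j*, at 44.2 and 49.5 FPKM. *Cfb*, in a row shared with *C2*, was at 88.9 and 65.6 FPKM, and *Crp* stood at 0.166 and 0.199 FPKM.

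Of the 8 negative acute phase proteins, whose plasma levels drop in the response, 4 exceeded 1 FPKM, and their median was −0.27. Transferrin, *Trf*, was at 676 and 520 FPKM and the retinol carrier *Rbp4* at 169 and 127 FPKM. Of the 3 over 5 FPKM, which were these and *Alb*, 0 differed by 1.5-fold as deposited, and 3 were lower with equal sums over all loci, as were 66.6% of named loci.

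**Figure D4:**
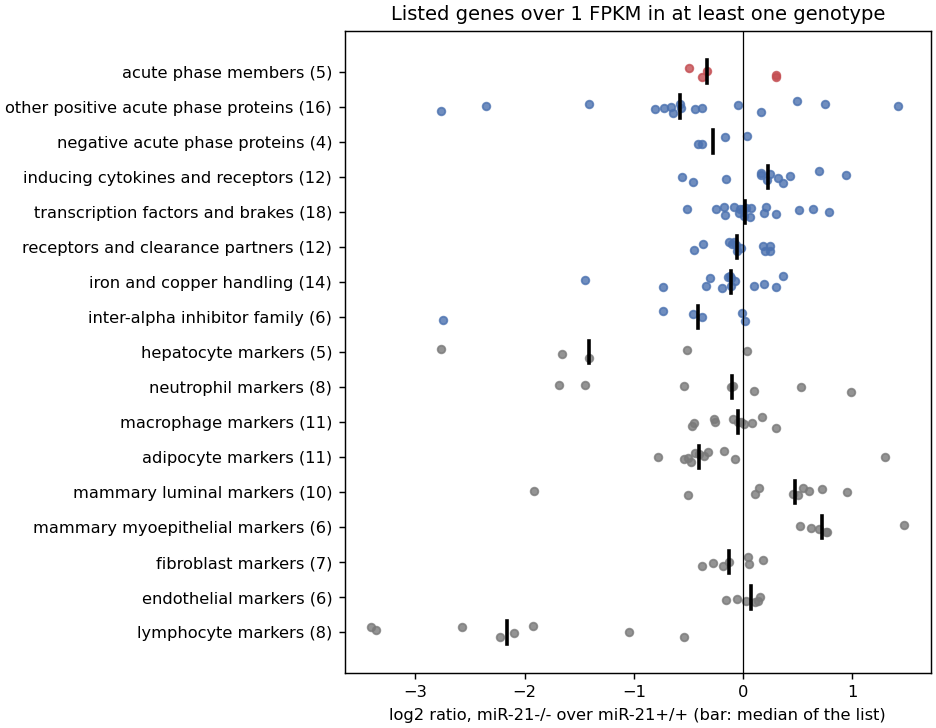
Log2 ratio of miR-21-/- over miR-21+/+ FPKM of every listed gene over 1 FPKM in at least one genotype, 1 row per list with its number of genes, and a bar at the list's median. The acute phase members (red) lie between −0.50 and 0.30, the lymphocyte markers all lie below 0 and the 6 myoepithelial markers all above it as deposited.

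The cytokines that drive acute phase genes were scarce. *Il6* was at 0.0842 FPKM in miR-21+/+ and 0.276 FPKM in miR-21-/- glands, *Il1b* at 0.414 and 0.580 FPKM, *Tnf* at 0.790 and 0.833 FPKM, and *Il17a* and *Il22* were listed at 0 in both. Of their receptors, the interleukin-6 receptor *Il6ra* was at 14.2 and 9.63 FPKM (−0.56), and *Il1rap*, a chain of the interleukin-1 receptor, at 3.61 and 4.27 FPKM (0.24). Of the 10 genes of this list over 5 FPKM, 2 were higher by 1.5-fold or more and 0 lower, beside 3.85% and 4.33% of named loci over that minimum. The 2 were the oncostatin M receptor *Osmr*, at 11.8 and 19.1 FPKM, and the interleukin-17 receptor *Il17ra*, at 7.54 and 14.4 FPKM. *Il6st*, the signalling chain shared by the interleukin-6 family, was at 54.7 and 61.2 FPKM. The median of the 12 genes above 1 FPKM was 0.23, which turned to −0.40 with equal sums over all loci, where 0 of the 10 were higher and 3 lower by 1.5-fold, beside 66.6% of named loci lower.

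Of the transcription factors and their brakes, 17 exceeded 5 FPKM, 2 were higher by 1.5-fold or more and 0 lower. Among all named loci over 5 FPKM these shares were 3.85% higher and 4.33% lower. *Stat3* was at 36.6 and 57.3 FPKM (0.64), and *Socs3*, the inhibitor that STAT3 itself induces, at 4.94 and 8.49 FPKM (0.78). *Cebpa* was the most abundant, at 149 and 133 FPKM (−0.16). *Jak1* at 47.5 and 46.5 FPKM and the NF-kB inhibitor *Nfkbia* at 41.9 and 39.6 FPKM differed by less than 0.10 on the log2 scale, and the median of the 18 genes above 1 FPKM was 0.018, which turned to −0.61 with equal sums over all loci, where 0 of the 17 were higher and 10 lower by 1.5-fold, beside 66.6% of named loci lower.

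Of the 15 receptors and clearance partners listed, 12 exceeded 1 FPKM, and *Lrp2*, *Fpr1* and *Fpr2* did not. *Cd163*, the receptor for haptoglobin bound to haemoglobin, was at 35.6 and 26.0 FPKM (−0.45), and *Lrp1*, the receptor for hemopexin bound to heme, at 70.3 and 83.1 FPKM (0.24). The heme oxygenase *Hmox1* was at 33.3 and 37.7 FPKM, and *Slc22a17*, a lipocalin-2 receptor, at 16.3 and 16.1 FPKM. Of the 11 genes of this list over 5 FPKM, 0 differed by 1.5-fold as deposited and 8 were lower with equal sums over all loci, beside 66.6% of named loci, and the median over the 12 above 1 FPKM was −0.06, which turned to 0.041 with equal sums over named loci.

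In iron and copper handling, 0 of 14 genes over 5 FPKM were higher and 2 were lower by 1.5-fold or more. Among all named loci over 5 FPKM, 3.85% were higher and 4.33% lower by that much. Lactoferrin, *Ltf*, an iron binder of secretions like lipocalin-2, was at 99.6 and 36.6 FPKM (−1.44), opposite to the 0.30 of *Lcn2*. *Ncoa4*, which sends ferritin to the lysosome, was at 83.3 and 50.2 FPKM (−0.73). The ferritin chains *Fth1*, at 1240 and 1180 FPKM, and *Ftl1*, at 868 and 800.1 FPKM, had log2 ratios of −0.071 and −0.12. The metalloreductase *Steap4*, at 89.6 and 110 FPKM, had a log2 ratio of 0.30, and *Heph*, the membrane relative of ceruloplasmin, one of 0.37, at 15.6 and 20.2 FPKM. The median over the 14 genes was −0.11, and with equal sums over all loci 10 of the 14 were lower by 1.5-fold, beside 66.6% of named loci.

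Loci within 100 kb of a member were compared to see whether it stood apart from its surroundings. Around *Hp*, 4 named neighbours over 1 FPKM had log2 ratios of −0.15 to 0.16, and around *Lcn2*, 8 had ratios of −0.31 to 0.13, and the ratios of both members, 0.30 each, were above those of all of these neighbours. Around *Orm1*, all 4 neighbours over 1 FPKM were lower by a like amount: besides *Orm2* and *Orm3*, the collagen gene *Col27a1* at 6.31 and 3.79 FPKM (−0.73) and *Akna*, a gene of lymphocytes among other cells, at 7.74 and 5.07 FPKM (−0.61). The neighbours of *Cp* had ratios of −0.81, for the glycogenin *Gyg* at 52.8 and 30.1 FPKM, to 0.11. The *Saa* cluster lies between *Saal1*, at 4.36 and 4.33 FPKM, and *Hps5*, at 11.2 and 11.3 FPKM, with log2 ratios of −0.01 and 0.02. *Saa4*, inside the cluster, was at 0.115 and 0.160 FPKM. Also within 100 kb of these genes, *Tph1* was at 1.4999 and 14.6 FPKM (3.29).

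**Figure D5:**
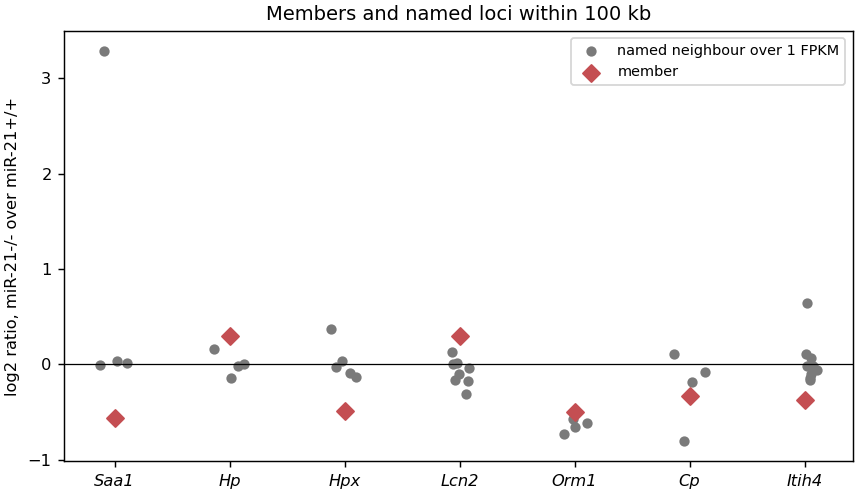
Log2 ratio of miR-21-/- over miR-21+/+ FPKM of members (diamonds) and of named loci within 100 kb that exceed 1 FPKM in at least one genotype (circles), with *Saa1* standing for the *Saa* cluster. *Orm1* at −0.50 lies beside 4 neighbours between −0.73 and −0.57, and *Hp* and *Lcn2* at 0.30 lie above all of theirs as deposited.

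Promoter sequences, from 250 bases before to 50 after each start in the RefSeq annotation of GRCm38.p6, were matched for 7 of the 9 members, all but *Hp* and *Orm1*. Each was searched on both strands for TTNNGNAA, the form bound by C/EBP factors, for CTGGGA and TTCNNNGAA, forms bound by STAT3 and other STAT factors, and for GGANTTTCC, a form bound by NF-kB. The C/EBP form was found in 6 of the 7 members, all but *Itih4*, and in 44.1% of 27025 genes. CTGGGA was found in *Saa3*, *Itih4* and the farther of 2 *Cp* starts, and in 34.8% of genes. TTCNNNGAA was found in 1 member, *Itih4*, and in 9.55% of genes, and GGANTTTCC in 0 members and in 1.45% of genes. These are matches of letters in a short window and say nothing of binding.

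The promoters of *Lcn2*, *Cp* and *Saa3* are shown because they set an abundant gene that was higher as deposited, an abundant gene that was lower and a gene near 0 side by side. They are printed 5′ to 3′ along the gene, with matches to any of the searched forms in capitals. That of *Lcn2* (GRCm38.p6, chr2:32387690-32387989, minus strand) has 1 match to the C/EBP form, first base 216 before the start. The nearer of the 2 *Cp* starts (chr3:19956999-19957298, plus strand) has 1, first base 70 before the start. *Saa3* (chr7:46715627-46715926, minus strand) has 4 between 216 and 99 bases before the start and 1 match to CTGGGA, on the other strand and just after the start. Among the 7 members searched, *Saa3* had the most matches, but *Hp* and *Orm1* could not be searched. Whether the number of matches and the RNA level are related was not tested.
Lcn2: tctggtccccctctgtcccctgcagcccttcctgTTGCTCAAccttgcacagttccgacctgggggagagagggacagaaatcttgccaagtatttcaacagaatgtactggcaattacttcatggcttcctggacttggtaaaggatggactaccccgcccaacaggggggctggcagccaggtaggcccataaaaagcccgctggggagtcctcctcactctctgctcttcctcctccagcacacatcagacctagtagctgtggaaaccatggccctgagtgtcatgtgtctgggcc
Cp: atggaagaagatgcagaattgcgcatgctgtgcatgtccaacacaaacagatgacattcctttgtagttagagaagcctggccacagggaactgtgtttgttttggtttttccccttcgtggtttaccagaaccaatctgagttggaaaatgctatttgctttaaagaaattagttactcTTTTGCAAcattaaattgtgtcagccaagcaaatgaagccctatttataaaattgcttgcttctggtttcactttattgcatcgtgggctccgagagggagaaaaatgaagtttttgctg
Saa3: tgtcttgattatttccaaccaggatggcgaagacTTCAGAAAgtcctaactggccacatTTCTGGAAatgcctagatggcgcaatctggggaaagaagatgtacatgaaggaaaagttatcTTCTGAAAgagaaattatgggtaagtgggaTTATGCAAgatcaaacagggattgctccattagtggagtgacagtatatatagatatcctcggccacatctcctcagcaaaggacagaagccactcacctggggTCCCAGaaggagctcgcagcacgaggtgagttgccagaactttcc

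Since the mice lack miR-21, the members' 3′ UTRs were searched for its seed match. Mature mmu-miR-21a-5p, from RefSeq, is shown with its seed, bases 2 to 8, in capitals, and pairs with ATAAGCT in a transcript.
miR-21a-5p: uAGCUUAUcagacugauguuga
Taking for each gene its longest annotated 3′ UTR, 0 of the 9 members held ATAAGCT, and 0 held the shorter TAAGCT, which pairs with bases 2 to 7. Over 19915 genes with an annotated 3′ UTR these shares were 6.10% and 20.8%. Apart from that of *Cp*, at 1073 bases, the members' 3′ UTRs were short, from 69 bases in *Hpx* to 277 in *Itih4*, and a short stretch holds fewer matches of any kind.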

How the data were processed

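Mammary poly(A) RNA was sequenced in 2 mice per genotype on an Illumina HiSeq. Per the labels and the methods, the authors processed reads with CASAVA, aligned them to mm9 with TopHat and estimated FPKM with Cufflinks. Program versions and the gene annotation are not given in the sources used here. The deposited table holds 2 FPKM columns, 1 per genotype, which were the only columns used. The others hold the authors' own log2 fold changes, test statistics, p-values and q-values. Because depth enters FPKM only through the scaling, the precision of low values is unknown.

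For each name the row with the highest mean FPKM was kept. Ratios are plain log2 ratios without a pseudocount. Named loci over 5 FPKM in at least one genotype, the minimum in the methods, were counted at 2-fold and at 1.5-fold. Medians used genes over 1 FPKM. Genes named are the 9 members, named loci within 100 kb, and from each of 16 further lists the 5 most abundant genes and those over 5 FPKM past 1.5-fold. Some genes that the rule names are not reported here. Genes outside this rule, such as the scarce cytokines and markers, were chosen after their values were seen. Members and lists were chosen with earlier results of these data known. Table starts count from 0, since 8351 annotated gene starts matched after adding 1 and 487 as printed; coordinates are given counting from 1. Transcripts were taken from GENCODE for NCBIM37 (mm9) and aligned with MAFFT 7.526. The steps were tested on simulated data and run in Python 3.11.15 with numpy 2.4.6, pandas 2.3.3 and matplotlib 3.10.9. Alternatives were a pseudocount, 3 scalings, other minimums and folds, and all rows of a name summed. Ratios relative to the luminal and adipocyte markers were added after seeing the data.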

Additional observations from a re-analysis of the deposited data

How the results depend on the processing

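No paired analysis was possible because each genotype has 1 combined FPKM value, and no mouse could be left out. Library depth is unknown. The count of members over 5 FPKM that passed 2-fold was 0 as deposited, with a pseudocount of 1, with other minimums, at 1.5-fold and under the scalings to named loci, and 1, *Orm1*, with equal sums over all loci. Under that scaling *Saa1* (−1.19), *Hpx* (−1.12) and *Itih4* (−1.003), below this minimum, passed it too. The median of the members was −0.33 as deposited, −0.97 with equal sums over all loci, −0.019 with a minimum of 5 FPKM, −0.81 relative to the luminal markers and 0.070 relative to the adipocyte markers. Equal sums over all loci, which lower every ratio by 0.63, turned the direction of *Saa2* (−0.52), *Saa3* (−0.14), *Hp* (−0.33) and *Lcn2* (−0.33). They also turned the medians of the cytokines and receptors (−0.40), the transcription factors (−0.61), the luminal markers (−0.15) and the endothelial markers (−0.56). Equal sums over named loci turned the medians of the clearance partners (0.041) and the macrophage markers (0.054). Relative to the luminal markers *Saa2* (−0.36), *Hp* (−0.18) and *Lcn2* (−0.18) turned, and relative to the adipocyte markers *Cp* (0.070) and *Itih4* (0.033). A value was said to move when it changed by 0.1 or more on the log2 scale or, for a count, by over 1.5 times. Of 321 recomputed values, 245 stayed within these limits, 60 moved and 16 changed sign. Many of the 245 could hardly move. Centring on the median of named loci shifts every ratio by 0.029 and equal sums over named loci by 0.099, both under 0.1. These settings gave 59 and 55 of the 245. Summing all rows of a name gave 59 more, and nearly every listed name has 1 row. The 245 is therefore no measure of how firm the results are.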
